A study of Mus musculus with 30 samples.

Results

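The genes described here encode the Fc gamma receptors of the mouse, which bind the constant part of IgG, and the proteins that work with them. They are the activating receptors Fcgr1, Fcgr3 and Fcgr4, the inhibitory receptor Fcgr2b, the signalling chain Fcer1g, and Fcgrt, the neonatal Fc receptor. The 6 genes were taken by symbol from the 54146 genes of the count table. Each symbol matched 1 Ensembl identifier, and all 6 passed the filter on low counts in every comparison below.

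Fc gamma receptors let macrophages take up IgG-coated particles and respond to immune complexes. The activating receptors have little signalling capacity of their own and depend on the common gamma chain, the product of Fcer1g, whose phosphorylated ITAM recruits the kinase Syk. Fcgr2b carries an inhibitory ITIM in its own tail and recruits the phosphatase SHIP1, the product of Inpp5d, so that the balance of activating and inhibitory receptors sets the threshold of the cell. Fcgr1 binds monomeric IgG with high affinity, whereas Fcgr3 and Fcgr4 bind immune complexes. Fcgrt does not belong to this signalling family. Its product resembles MHC class I, pairs with B2m, and salvages IgG from lysosomal degradation. Interferon-gamma (IFNG) is the classical inducer of Fcgr1 in macrophages, and the gamma-activated site (GAS) is a DNA element found at genes that it induces.

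The libraries came from J774A.1, a mouse macrophage-like cell line of BALB/c origin. There were 3 wild-type clones (WT1, WT2 and WT3), each expanded from a single cell without electroporation, and 2 knockout clones (KO1 and KO2), each homozygous for a CRISPR/Cas9 deletion of B2_Mm2.Dicer1, a B2 SINE element in the first intron of Dicer1. Each clone was left untreated (UT) or given 100 ng/mL IFNG for 4 h, with 3 polyadenylated RNA libraries per clone and treatment and 30 in all. Edited and unedited clones therefore also differed in whether they had been electroporated, and each clone is a single lineage of the line.

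Library totals ran from 15566122 to 37992642 counted fragments, and the 6 genes received 753 to 23401 fragments per library. The 30 pairs of libraries that share a clone and a treatment each differed beyond counting noise (chi-square over its degrees of freedom, 1.95 to 19.5). Nothing in the sources used here states that they came from separate cultures, so p-values measure the spread between these libraries, which may be technical. The deletion lies in an intron and is not itself read by exon counts. Dicer1 was at 70.5 to 73.0 CPM (TMM-normalized counts scaled to a common library size) in untreated KO1, 101.3 to 108 CPM in untreated KO2 and 96.8 to 130.2 CPM in the untreated WT libraries, so that KO2 lay within the WT range, and after IFNG at 71.5 to 105 CPM in KO and 132 to 171 CPM in WT libraries. All 8 macrophage marker genes checked were detected at 1 CPM or more, while the summed level of 5 B cell markers stayed at or under 0.380 CPM, that of 6 T and NK cell markers at or under 0.180 CPM and that of 5 mast cell markers at or under 1.01 CPM. Sums ran from 1.23 to 3.48 CPM for 6 neutrophil markers and from 1.46 to 5.59 CPM for 5 dendritic cell markers, with 1 marker of each list reaching a mean of 1 CPM in some group. Bulk libraries cannot tell fewer cells with a transcript from less of it in each cell.

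Of the 6 genes, 4 lie close together on chromosome 1 (mm10). These are Fcgr2b (170958617 to 170976547, minus strand), Fcgr4 (171018920 to 171029761, plus strand), Fcgr3 (171051174 to 171064935, minus strand) and Fcer1g (171229572 to 171234365, minus strand). Fcgr1 is on chromosome 3 from 96282909 to 96293969 and Fcgrt on chromosome 7 from 45092990 to 45103851, both on the minus strand. Fcgr2b and Fcgr3 have nearly the same extracellular sequence and opposite functions. The coding exons that follow are one in each gene, both 255 bases long, and differ at 5 positions, which are in capitals. They are shown because a read lying wholly within a shared run cannot be assigned to the inhibitory or the activating receptor. The sequences are from the GENCODE vM21 transcripts (GRCm38), 5′ to 3′ on the minus strand. The Fcgr2b exon spans chr1:170966446-170966700 and the Fcgr3 exon chr1:171053939-171054193.
Fcgr2b: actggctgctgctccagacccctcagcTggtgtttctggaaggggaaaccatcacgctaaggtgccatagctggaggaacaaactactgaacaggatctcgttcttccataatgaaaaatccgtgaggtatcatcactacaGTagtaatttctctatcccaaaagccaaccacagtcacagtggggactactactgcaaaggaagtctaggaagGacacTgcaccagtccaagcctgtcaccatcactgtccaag
Fcgr3: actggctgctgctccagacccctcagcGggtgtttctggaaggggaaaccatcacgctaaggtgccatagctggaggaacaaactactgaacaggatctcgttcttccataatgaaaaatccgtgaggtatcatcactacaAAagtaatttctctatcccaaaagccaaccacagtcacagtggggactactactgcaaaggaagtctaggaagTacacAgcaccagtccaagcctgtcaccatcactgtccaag

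Those exons were 98.0% identical. Over the whole transcripts, the longest exact run shared by Fcgr2b and Fcgr3 was 129 bases, and windows of 100 bases shared with the other gene made up 3.53% of the Fcgr3 transcript and 1.28% of the Fcgr2b transcript. At a window of 150 bases, 0 windows were shared. No other pair of the 6 genes shared an exact run longer than 14 bases. The counts hold uniquely aligned fragments only, so a fragment lying wholly within shared sequence would have been dropped from both genes. Annotated genes that overlap members received few fragments, with at most 19 per library for Gm38204 (antisense to Fcgr2b), 31 for Gm26110 (within Fcgr4) and 2 for Mir6546 (within Fcgr3).

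Levels of different genes were compared as CPM per kilobase of annotated exon. In the untreated libraries, Fcer1g was the most abundant transcript, with clone means of 213 to 240.4 CPM per kb. Fcgr3 followed at 155 to 186 CPM per kb, and its 15 untreated libraries (151 to 192) all lay below those of Fcer1g (207 to 247). The inhibitory Fcgr2b was at 36.01 to 65.5, Fcgr4 at 26.02 to 40.9, Fcgrt at 24.9 to 36.5 and Fcgr1 at 16.7 to 28.1 CPM per kb. Across clones the range of Fcgr2b overlapped those of Fcgr4 and Fcgrt, while within each clone its mean was above those of Fcgr4, Fcgrt and Fcgr1. This overlap depends on the length used. The annotated exons of Fcgr2b total 5790 bases and its longest transcript has 3544, which would place Fcgr2b higher. After IFNG, the clone means of Fcgr3 reached 319.7 to 415 CPM per kb and all of its 15 libraries (291 to 442) lay above those of Fcer1g (196 to 262). Fcgr4 rose to 180.2 to 260.2 and Fcgr1 to 83.1 to 141 CPM per kb, above the 57.6 to 93.6 CPM per kb of Fcgr2b in the case of Fcgr4 and overlapping them in the case of Fcgr1. Fcgrt, at 25.1 to 38.5 CPM per kb, was then the least abundant of the 6.

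**Figure D1:**
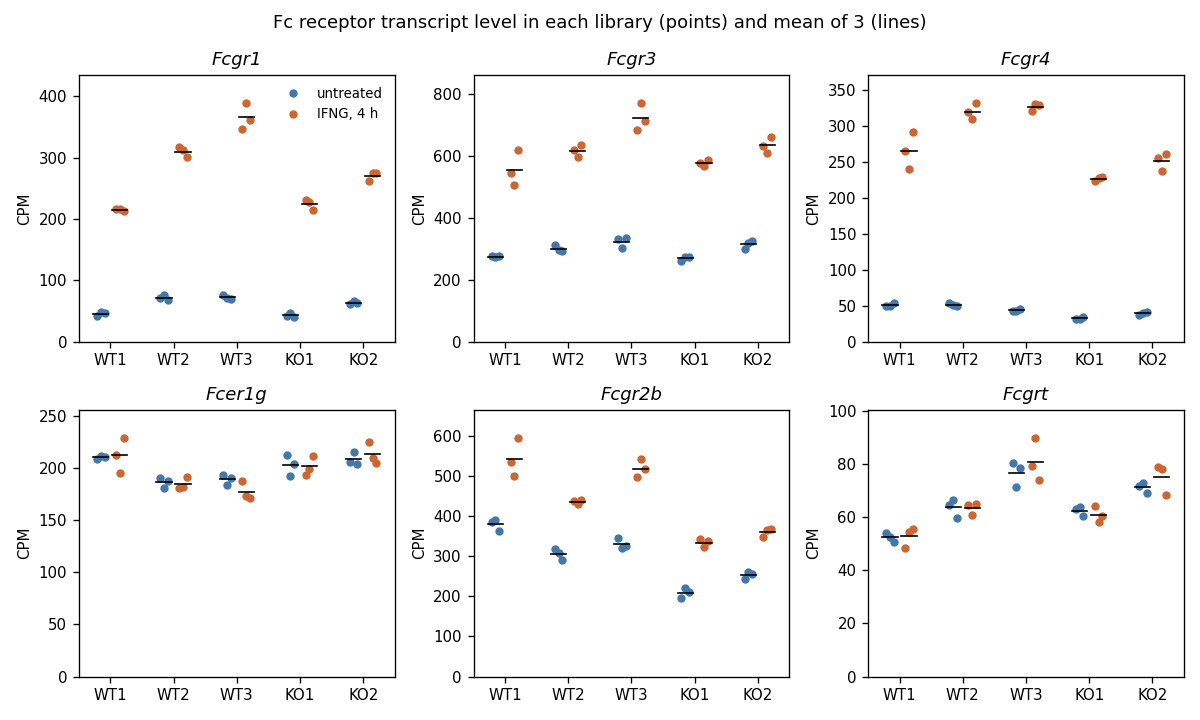
Level of the 6 genes (vertical axes, TMM-normalized CPM, starting at 0) in every library by clone (horizontal axes), with untreated libraries in blue, IFNG-treated libraries in orange and black lines for the mean of 3. Fcgr1, Fcgr3, Fcgr4 and Fcgr2b are higher in the treated than in the untreated libraries of all 5 clones, whereas the treated and untreated libraries of Fcer1g and Fcgrt overlap in each clone.

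IFNG raised all 3 activating receptor genes and the inhibitory receptor gene in each of the 5 clones, and neither Fcer1g nor Fcgrt passed the test in any of them. In each clone, 4 of the 6 genes were called, all of them higher, by edgeR's quasi-likelihood test at an FDR adjusted p-value under 0.05. The share of all tested genes called higher was 11.8% in WT1, 17.4% in WT2, 18.6% in WT3, 16.2% in KO1 and 13.9% in KO2. Pooling the clones of a genotype gave the same count, beside 14.8% of all genes called higher in pooled WT and 15.8% in pooled KO. Irf1, which encodes an interferon-induced transcription factor, had a log2FC of 5.10 in pooled WT and 5.13 in pooled KO, and the guanylate-binding protein gene Gbp2b had log2FC values of 8.75 and 9.63. Of 6 genes listed as a check of the treatment, 5 were tested and 5 rose in both pooled fits, among them Socs1 (log2FC 6.88 in pooled WT), which encodes an inhibitor of interferon signalling. The chemokine gene Cxcl9 had group means of 0 CPM untreated and 34.2 to 58.2 CPM after IFNG.

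The high-affinity receptor Fcgr1 rose 4.25-fold to 5.32-fold. Its untreated level was 41.6, 46.7 and 47.7 CPM in WT1, 68.1, 71.7 and 75.6 CPM in WT2, 69.8, 71.4 and 76.9 CPM in WT3, 40.2, 42.4 and 46.9 CPM in KO1, and 62.1, 62.6 and 66.1 CPM in KO2. After IFNG it was 213, 216 and 217 CPM in WT1, 301, 312 and 317 CPM in WT2, 347, 362 and 388 CPM in WT3, 215, 228 and 231 CPM in KO1, and 263, 275 and 275 CPM in KO2. The clones low for Fcgr1 before treatment, WT1 and KO1, were also the lowest after it, and treated and untreated libraries did not overlap in any clone. The log2FC was 2.23 (SE 0.066) in WT1, 2.12 (SE 0.041) in WT2, 2.34 (SE 0.052) in WT3, 2.41 (SE 0.060) in KO1 and 2.09 (SE 0.047) in KO2, with adjusted p-values of 3.45e-12, 7.83e-20, 7.78e-17, 6.52e-13 and 4.35e-14.

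Fcgr4, the receptor for IgG2a and IgG2b immune complexes, had the largest fold change of the 6 genes in every clone, from 5.16-fold to 7.55-fold. Its untreated level was 50.1, 50.1 and 53.2 CPM in WT1, 50.2, 50.4 and 53.5 CPM in WT2, 42.5, 43.0 and 45.6 CPM in WT3, 31.2, 32.01 and 34.8 CPM in KO1, and 37.3, 40.2 and 40.8 CPM in KO2. After IFNG it was 239.9, 265 and 292 CPM in WT1, 309, 319 and 331 CPM in WT2, 321, 328 and 331 CPM in WT3, 223, 227 and 229 CPM in KO1, and 237, 255 and 260.5 CPM in KO2. WT1 thus began with a level like that of WT2 and ended below it, while WT3 began lower and ended at the level of WT2. The log2FC was 2.37 (SE 0.075) in WT1, 2.65 (SE 0.042) in WT2, 2.92 (SE 0.044) in WT3, 2.82 (SE 0.053) in KO1 and 2.67 (SE 0.055) in KO2, with the adjusted p-values running from 3.43e-21 in WT2 to 8.63e-12 in WT1.

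Fcgr3, the most abundant activating receptor transcript, rose 2.01-fold to 2.25-fold. Its untreated level was 272, 275 and 276 CPM in WT1, 291, 295 and 311 CPM in WT2, 303, 332 and 334 CPM in WT3, 262, 273 and 274 CPM in KO1, and 299, 319 and 323 CPM in KO2. After IFNG it was 506, 543 and 617 CPM in WT1, 595, 617 and 634 CPM in WT2, 683, 712 and 768 CPM in WT3, 566, 577 and 586 CPM in KO1, and 610, 631 and 660 CPM in KO2. Every treated library stood above every untreated library, whichever clone it came from. The log2FC ranged from 1.00 (SE 0.072, WT1) to 1.17 (SE 0.049, WT3), with a largest adjusted p-value of 1.04e-07, in WT1.

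Fcgr2b, the inhibitory receptor, rose less, 1.42-fold to 1.63-fold. Its untreated level was 362, 385 and 390.3 CPM in WT1, 289.5, 307 and 317 CPM in WT2, 320.2, 324 and 345 CPM in WT3, 196, 209.5 and 220.1 CPM in KO1, and 244, 256 and 259.9 CPM in KO2. After IFNG it was 498, 533 and 593 CPM in WT1, 429, 437 and 441 CPM in WT2, 496, 517 and 541 CPM in WT3, 321, 337 and 342 CPM in KO1, and 348, 365 and 368 CPM in KO2. Within each clone the treated libraries were all higher, but the treated libraries of both KO clones fell among the untreated libraries of the WT clones. The log2FC was 0.50 (SE 0.071) in WT1, 0.53 (SE 0.036) in WT2, 0.66 (SE 0.043) in WT3, 0.71 (SE 0.053) in KO1 and 0.51 (SE 0.045) in KO2, with a largest adjusted p-value of 9.50e-05, in WT1.

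Fcer1g, on which the 3 activating receptors depend, ran from 181 to 216 CPM over the 15 untreated libraries and from 171 to 229 CPM over the 15 treated ones. Its log2FC lay between -0.082 (SE 0.044, adjusted p = 0.16) in WT3 and 0.034 (SE 0.048, adjusted p = 0.68) in KO2. In pooled WT, the log2FC was -0.023, and the interval of 1.96 SE around it ran from -0.13 to 0.082. In pooled KO it was 0.024, with an interval of -0.055 to 0.10. Leaving out 1 treated library of WT3 gave a log2FC of -0.12 and an adjusted p-value of 0.016 in that clone. Fcgrt ran from 50.6 to 80.5 CPM untreated and from 48.3 to 89.6 CPM after IFNG. Its log2FC was between -0.0039 (KO1) and 0.086 (WT3), and the smallest adjusted p-value was 0.31, in WT3. Without 1 treated library of KO2, the Fcgrt log2FC in that clone was 0.14 with an adjusted p-value of 0.035.

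**Figure D2:**
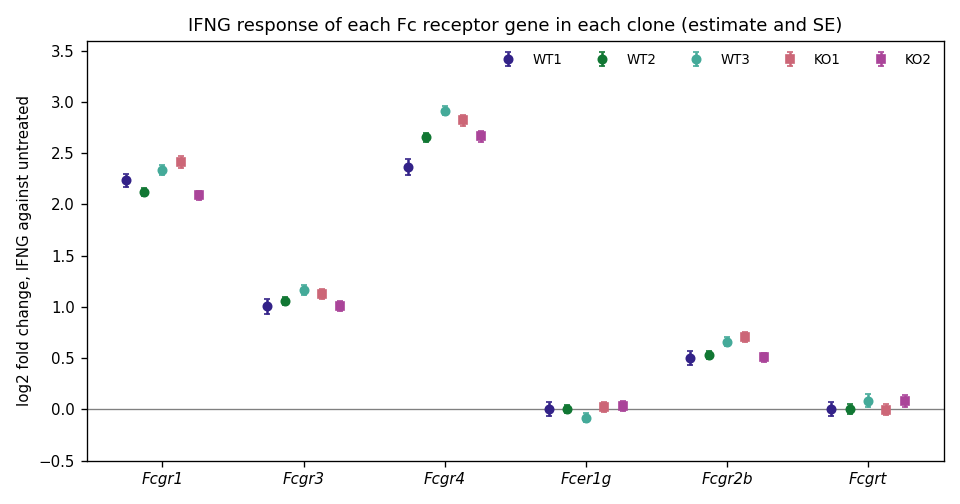
IFNG response of the 6 genes (vertical axis, log2FC of treated against untreated libraries) in each clone (circles for WT, squares for KO, 3 libraries against 3), with bars of the SE. Fcgr4 lies highest for WT1, WT2, WT3, KO1 and KO2 alike, from 2.37 to 2.92, followed by Fcgr1, Fcgr3 and Fcgr2b, while the points of Fcer1g and Fcgrt lie between -0.082 and 0.086.

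The size of the response was compared among the 5 clones with an F test of the clone by treatment terms over all 30 libraries, which called 3.68% of all genes. Of the 6 genes, 2 passed. The Fcgr4 response differed among clones (F = 12.6, adjusted p = 0.00035), and it still did when any 1 clone was left out, with adjusted p-values up to 0.036, the value without WT1. The Fcgr1 response passed narrowly (F = 5.62, adjusted p = 0.045) and no longer passed in 21 of the 30 fits that left out 1 library, with adjusted p-values of 0.013 to 0.11. Fcgr3 (adjusted p = 0.79), Fcgr2b (0.46), Fcer1g (0.86) and Fcgrt (0.92) did not pass. The responses of the KO clones together were not shown to differ from those of the WT clones. By the interaction of genotype and treatment, 0 of the 6 genes were called by edgeR or by DESeq2, beside 1.02% of all genes in edgeR, and 0 had an unadjusted p-value under 0.05 with either tool. The interaction log2FC was 0.091 (SE 0.079) for Fcgr4, 0.032 (SE 0.053) for Fcgr2b, -0.017 (SE 0.052) for Fcgr3 and 0.0032 (SE 0.063) for Fcgr1.

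The promoters of Fcgr1 and Fcgr4, the genes with the largest responses, are printed to show what sequence lies in front of them. Each run is the 250 bases before the RefSeq start (GRCm38.p6), 5′ to 3′ on the strand of the gene. The windows are chr3:96293970-96294219 (minus strand) and chr1:171018676-171018925 (plus strand). Capitals mark a match to TTCNNNGAA, the GAS consensus, which reads the same on both strands, or to the core of the interferon-stimulated response element (ISRE), which is GAAA, NN and GAAA in a row, searched on both strands.
Fcgr1: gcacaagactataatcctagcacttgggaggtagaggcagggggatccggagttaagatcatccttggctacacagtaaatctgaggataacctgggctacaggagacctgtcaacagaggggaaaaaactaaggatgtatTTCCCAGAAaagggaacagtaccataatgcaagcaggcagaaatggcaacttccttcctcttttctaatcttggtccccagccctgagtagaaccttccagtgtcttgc
Fcgr4: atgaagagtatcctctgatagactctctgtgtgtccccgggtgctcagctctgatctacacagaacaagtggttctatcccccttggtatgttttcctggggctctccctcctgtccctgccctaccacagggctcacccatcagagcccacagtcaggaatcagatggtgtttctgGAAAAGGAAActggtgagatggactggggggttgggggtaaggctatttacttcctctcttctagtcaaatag

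The Fcgr1 window held 1 GAS match, TTCCCAGAA, beginning at -109 from the start, and 0 ISRE core matches. The Fcgr4 window held 1 ISRE core match, GAAAAGGAAA, beginning at -73, and 0 GAS matches. Neither motif occurred in the windows of Fcgr3, Fcgr2b, Fcer1g or Fcgrt. A RefSeq start was given for all 6 genes, with an additional start for Fcgr3 that also had no match. The window of that start (chr1:171059395-171059644) covers most of the other Fcgr3 window (chr1:171059404-171059653) and is no separate check. Both lie inside the counted Fcgr3 gene, which begins at 171064935 on the minus strand. The Fcgr2b window (chr1:170976072-170976321) likewise lies inside its counted gene, which begins at 170976547 on the minus strand. Of the 32851 promoter windows of this length, 7.02% held the GAS letters and 2.98% the ISRE core letters. GAGGAA, the core bound by the macrophage factor PU.1, was found on either strand in front of Fcgr1, Fcgr3 and Fcgr4 and in 23.3% of all windows. These are matches of letters and show no binding.

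IFNG changed the make-up of the activating receptor transcripts in the same way in all 5 clones. Per kilobase, Fcgr3 made up 71.5% to 78.4% of the summed Fcgr1, Fcgr3 and Fcgr4 level in the untreated clone means and 48.6% to 55.4% after IFNG. The share of Fcgr4 went from between 13.1% and 18.8% to between 29.8% and 34.9%, and that of Fcgr1 from between 8.10% and 11.5% to between 13.6% and 17.3%. The untreated and treated ranges did not overlap for any of the 3 genes. The summed activating level, set against that of their signalling chain Fcer1g, was 0.855 to 1.15 in the untreated clone means and 2.53 to 4.04 after IFNG. These shares and ratios follow from the responses given above and were not tested.

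The ratio of activating to inhibitory transcript, (Fcgr1 + Fcgr3 + Fcgr4) over Fcgr2b in CPM per kb, was computed in each library. In the untreated libraries it was 3.19, 3.23 and 3.50 in WT1, 4.52, 4.55 and 4.68 in WT2, 4.27, 4.29 and 4.57 in WT3, 5.29, 5.55 and 5.67 in KO1, and 5.37, 5.37 and 5.50 in KO2. After IFNG it was 6.53, 6.57 and 6.59 in WT1, 9.58, 9.70 and 9.80 in WT2, 9.10, 9.13 and 9.16 in WT3, 10.2, 10.4 and 10.7 in KO1, and 10.2, 10.9 and 11.1 in KO2. The lowest ratios at both times were those of WT1, the clone with the most Fcgr2b, and all KO libraries stood above all WT libraries of the same treatment. These libraries came from only 3 WT and 2 KO clones, and the separation was not tested. The lower Fcgr2b of the KO clones, described below, was not called with counts summed per clone. The ratio rose 1.89-fold (KO1) to 2.11-fold (WT2), a mean change of 1.01 on the log2 scale (SD 0.064 over 5 clones). Taken singly, Fcgr1 over Fcgr2b rose 2.99-fold to 3.34-fold, Fcgr4 over Fcgr2b 3.63-fold to 4.76-fold, and Fcgr3 over Fcgr2b 1.34-fold to 1.44-fold. The level of this ratio depends on the lengths used. With the longest annotated transcript of each gene in place of all annotated exons, its geometric mean over clones was 3.39 untreated and 6.46 after IFNG, in place of 4.56 and 9.18.

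**Figure D3:**
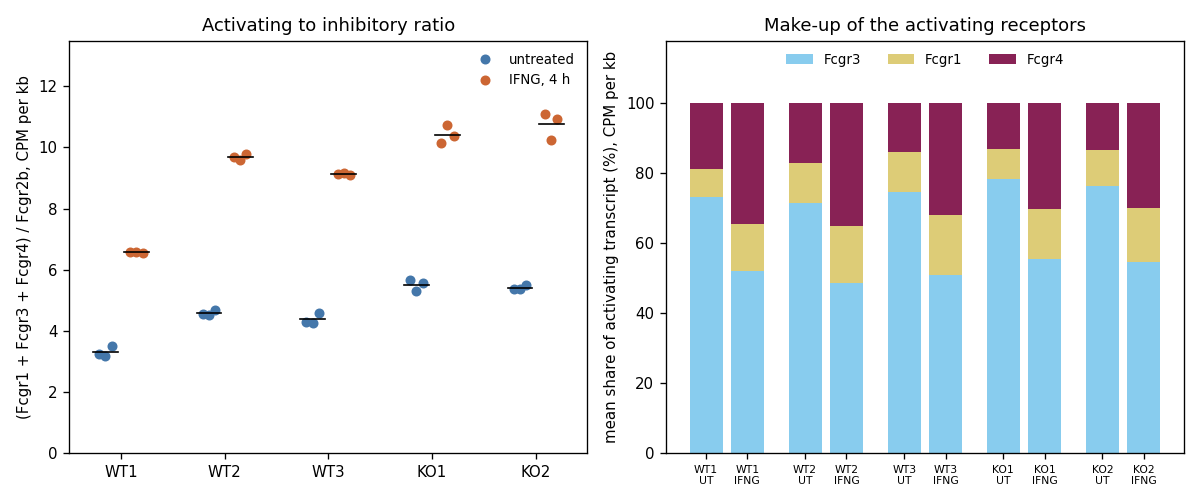
Left, ratio of summed activating receptor transcript to Fcgr2b transcript (vertical axis, CPM per kb over CPM per kb, starting at 0) in every library by clone, with black lines for means of 3. Right, mean share of Fcgr3, Fcgr1 and Fcgr4 in the activating sum (vertical axis, percent) for each clone and treatment. The ratio is higher after IFNG in every clone, from 6.53 upward against at most 5.67 untreated, and the Fcgr4 share grows from at most 18.8% to at least 29.8%.

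Before treatment, the clones themselves differed in the level of every gene of the group. The F test over the 15 untreated libraries called all 6 genes, beside 73.2% of all genes, so that a difference among clones was the common case in these libraries. Fcgr2b had the largest F (105, adjusted p = 2.82e-12), with its highest clone mean 1.82 times the lowest, followed by Fcgr1 (F = 72.4, 1.69 times), Fcgr4 (F = 55.1, 1.57 times) and Fcgrt (F = 37.0, 1.46 times). Fcgr3 and Fcer1g varied least, by 1.20 and 1.13 times. The order of the clones was not shared. Fcgr2b was highest in WT1 (379 ± 14.8 CPM, SD, n = 3), then WT3 (330 ± 13.1), WT2 (304 ± 13.8), KO2 (253 ± 8.35) and KO1 (208 ± 12.1), and no neighbours in this order overlapped. Fcgrt was highest in WT3 (76.7 ± 4.84 CPM) and lowest in WT1 (52.3 ± 1.69), with KO2 overlapping WT3, and KO1 overlapping WT2, between them. For Fcgr1, WT3 overlapped with WT2, and WT1 with KO1. Fcer1g was highest in WT1 (210 ± 1.53 CPM) and lowest in WT2 (186 ± 4.97), and every neighbouring pair in its order overlapped. For Fcgr4, WT2 and WT1 overlapped, and WT3, KO2 and KO1 each lay apart below them.

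Between genotypes, the inhibitory receptor Fcgr2b and the activating receptor Fcgr4 were lower in the KO than in the WT libraries, and the other 4 genes did not pass the test. In untreated cells, 2 of 6 genes were called, both lower, beside 14.4% of all genes called lower. After IFNG the same 2 genes were called lower, beside 13% of all genes called lower. Fcgr2b had a log2FC of -0.55 (SE 0.081, adjusted p = 0.00011) untreated and -0.52 (SE 0.067, adjusted p = 4.33e-05) after IFNG, or 0.681 and 0.697 times the WT level. The 6 untreated KO libraries (196 to 259.9 CPM) all lay below the 9 untreated WT libraries (289.5 to 390.3 CPM), and so did the treated ones (321 to 368 against 429 to 593 CPM). Fcgr4 had a log2FC of -0.44 (SE 0.073, adjusted p = 0.00038) untreated and -0.35 (SE 0.072, adjusted p = 0.0021) after IFNG. Its untreated KO libraries (31.2 to 40.8 CPM) lay below all WT libraries (42.5 to 53.5 CPM), while the treated ones (223 to 260.5 CPM) overlapped with those of WT1. The share of all genes whose KO and WT libraries lay apart in this way was not computed.

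These calls treat libraries of a clone as replicates of its genotype. With counts summed per clone, 3 WT clones against 2 KO clones, the log2FC values of Fcgr2b were almost the same (-0.56 untreated, -0.52 after IFNG), but the adjusted p-values were 0.29 and 0.27 and 0 of the 6 genes were called, beside 1 of 16189 genes untreated. The unadjusted p-values in that fit were 0.0069 and 0.0050 for Fcgr2b and 0.015 and 0.032 for Fcgr4, beside 11.4% (untreated) and 11.3% (IFNG) of all genes under 0.05 in it. Taken against the 9 WT libraries, KO1 alone had a larger Fcgr2b difference (-0.71 untreated) than KO2 alone (-0.42). After IFNG the values were -0.57 in KO1 and -0.47 in KO2. Each of these fits holds a single KO clone, so only effect sizes are given for them. Fcgr4 was also lower in each KO clone, both untreated (-0.59 in KO1 and -0.30 in KO2) and after IFNG (-0.42 in KO1 and -0.28 in KO2). Fcgr1 had a log2FC of -0.56 in untreated KO1 and 0.011 in untreated KO2. Its untreated level in KO1 (40.2 to 46.9 CPM) overlapped that in WT1 (41.6 to 47.7 CPM), an unedited clone.

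Other genes moved with the genotype too. The 756 expressed genes of chromosome 1, where Fcgr2b and Fcgr4 lie, had a median shift against the WT clones of -0.080 in untreated KO1 and -0.065 in untreated KO2 on the log2 scale, and the 69 expressed genes within 5 Mb of the Fcgr cluster had medians of 0.0021 and -0.046. With normalization on chromosome 1 genes alone, Fcgr2b was at -0.48 and Fcgr4 at -0.36 in untreated KO cells, both still called. Under that scaling Fcer1g was called as well (0.15 untreated, adjusted p = 0.022, and 0.20 after IFNG, adjusted p = 0.029), which it was not with factors from all genes. With factors from all genes, Fcgr3 and Fcer1g, in the same cluster, had untreated log2FC values of -0.038 (SE 0.060) and 0.070 (SE 0.045). With chromosome 1 factors, untreated Fcgr3 was at 0.040 and not called. The summed level of the 8 macrophage markers was 6092 to 6964 CPM in the untreated KO libraries and 4352 to 5792 CPM in the untreated WT libraries. Of the 8 markers, 4 were called higher in untreated KO cells (Adgre1, Csf1r, Itgam and Spi1, log2FC 0.22 to 2.39), and Mertk was called lower (-1.10). Of all genes, 12.2% were called higher and 14.4% lower. These marker calls also treat libraries of a clone as replicates of its genotype. Adgre1, with the log2FC of 2.39, varied among the untreated WT clones, from a mean of 10.2 CPM in WT1 to 101 CPM in WT2. The part of these marker genes in the receptor differences was not tested.

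**Figure D4:**
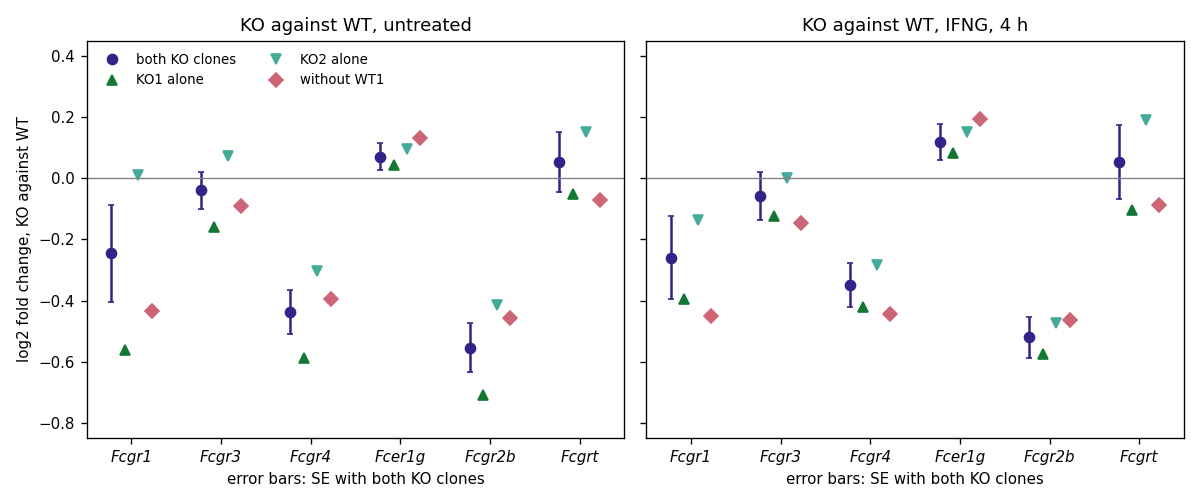
Difference between KO and WT libraries (vertical axes, log2FC) for the 6 genes, untreated on the left and after IFNG on the right, with both KO clones (circles, bars of the SE), KO1 alone (upward triangles), KO2 alone (downward triangles), and both KO clones against WT2 and WT3 only (diamonds). Fcgr2b and Fcgr4 lie below 0 in the 4 settings of both panels, whereas Fcgr3 and Fcgrt have points on both sides of 0.

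Genes that act downstream of the receptors were called in both directions. Of the 28 genes listed for activating Fc receptor signalling, 27 were tested in pooled WT, where 8 were higher and 4 lower after IFNG (median log2FC 0.011, against -0.0028 over all genes), beside 14.8% of all genes called higher and 13.9% called lower. In pooled KO, 8 were higher and 5 lower among 28, beside 15.8% and 14.8% of all genes. Lcp2, which encodes the adaptor SLP-76, rose 2.40-fold in pooled WT and 2.31-fold in pooled KO, and the Src-family kinase gene Lyn rose 1.55-fold in both. Prkcd, which encodes protein kinase C delta, was at 0.691 and 0.748 times its untreated level. Of the 14 inhibitory signalling genes, 3 rose and 5 fell in pooled WT, with a median log2FC of -0.12, and 4 rose and 5 fell in pooled KO. Among the docking protein genes, Dok2 rose 1.51-fold in pooled WT, while Dok3 and Dok1 were at 0.720 and 0.746 times the untreated level. Pag1, a membrane adaptor for the kinase Csk, was at 0.811 times in pooled WT. It did not pass in pooled KO (adjusted p = 0.097), in a fit without a clone term. Its mean fell there from 50.1 to 43.3 CPM in KO1 and from 66.4 to 53.6 CPM in KO2. Between untreated genotypes, 3 of the 28 activating signalling genes were higher and 7 lower in KO, and of the 14 inhibitory signalling genes 1 was higher and 5 lower, beside 12.2% of all genes called higher and 14.4% called lower. The lists were chosen with earlier results of these data known, and these counts are a description.

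Among 9 partner genes, 6 were tested and 2 rose in each pooled fit, beside 14.8% (WT) and 15.8% (KO) of all genes. B2m, the light chain that pairs with Fcgrt, rose 1.46-fold in pooled WT and 1.55-fold in pooled KO, although Fcgrt itself did not pass, and Clec4n, which encodes the lectin Dectin-2 and signals through the Fcer1g chain, rose 1.49-fold and 1.32-fold. Without WT3, the Clec4n response in pooled WT had an adjusted p-value of 0.13, in a fit without a clone term. The Clec4n mean rose from 10.7 to 16.6 CPM in WT1 and from 18.6 to 24.2 CPM in WT2. Of 11 other immunoglobulin receptor genes, 3 were expressed highly enough to be tested. Trim21, a cytosolic receptor for antibody bound to viruses, rose 5.43-fold in pooled WT and 5.33-fold in pooled KO. It went from 11.5 to 70.4 CPM in WT1 and from 17.99 to 99.7 CPM in WT3.

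The genes most like each member were sought by Pearson's r of log2(CPM + 0.5) over the 10 clone and treatment means, among the 12339 genes whose mean over libraries reached 1 CPM. For Fcgr4 they were Trim34a, Stat2 and Dtx3l (r of 0.998, 0.997 and 0.997), and for Fcgr1 Stx7, Ifi207 and Trim30a (0.995, 0.994 and 0.994). For Fcgr3 they were Zbtb5, Susd6 and A530040E14Rik (0.995, 0.994 and 0.993). An r above 0.9 with Fcgr4, Fcgr1 and Fcgr3 was reached by 604, 582 and 630 genes. It was reached by 83 genes with Fcgr2b (most like Fyco1, Ly86 and Tgoln1, r of 0.979, 0.974 and 0.974) and 37 with Fcgrt, whose nearest gene was Mrc1, the mannose receptor of macrophages (0.990), ahead of Eps15 (0.965) and Tmem168 (0.955). Fcer1g was most like Epb41l1, 5830408C22Rik and Ckb (0.983, 0.982 and 0.978), and 256 genes reached an r above 0.9 with it. Among the members, Fcgr1 and Fcgr3 had an r of 0.994, Fcgr4 and Fcgr2b 0.789, and Fcer1g and Fcgrt -0.474. The 10 points share libraries and clones and are not independent.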

How the data were processed

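Polyadenylated RNA of 30 libraries of J774A.1 clones was measured as raw counts of fragments per gene. Per the file headers and the study's methods, the authors trimmed with BBDuk, mapped to mm10 using HISAT2 2.1.0, kept uniquely aligned fragments, merged technical replicates with SAMtools 1.10 and made the deposited counts with featureCounts 1.6.2 in reversely stranded mode, counting a fragment over overlapping genes for each. The methods name a RefSeq annotation, the header Gencode vM18. Single- and dual-index adapters and different RNA inputs were used but not assigned to libraries, so a batch could not be examined. The table holding every library was the source of all values. Tables of single comparisons gave no values and served only to label clones. Columns headed wtc1 and wtc3 were taken as WT2 and WT3, because the WT2 and WT3 comparisons hold only those columns. The labels do not spell this out.

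Library sums were 15566122 to 37992642 counts, and the SE of each log2FC shows the precision over libraries, not over clones. With counts summed per clone, the SE of untreated KO against WT was 0.14 for Fcgr2b and 0.13 for Fcgr4. Testing used edgeR 4.0.16 under R 4.3.3, with filterByExpr, TMM factors, estimateDisp, glmQLFit and glmQLFTest, Benjamini-Hochberg adjustment over all genes tested and a threshold of 0.05. SE was |log2FC| over the root of F. CPM used TMM factors from 14870 genes, and CPM per kb the exon length in the table. Each clone was compared alone (3 libraries against 3), pooled by genotype (9 WT, 6 KO) and between genotypes within a treatment (6 against 9). The interaction model held clone, treatment and their genotype term, and clones were compared by F tests with 4 degrees of freedom. The scripts were tested on simulated data. Alternatives were DESeq2 1.42.0, RLE factors, factors from chromosome 1, other count filters, a single fit over 30 libraries, clone as a block, summed counts per clone, and leaving out clones or libraries. The members and gene lists were chosen with earlier results of these data known. Named were all 6 members and, from each list, up to 4 genes past the threshold in pooled WT with the largest absolute log2FC and a group mean reaching 1 CPM, with Dicer1 as a check, and the 3 genes most like each member. A gene that this rule names is not reported here.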

Additional observations from a re-analysis of the deposited data

Results flagged for a closer look

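The IFNG response of Fcgr4 differed among the 5 clones in the F test over 30 libraries (F = 12.6, adjusted p = 0.00035), with log2FC values of 2.37 in WT1, 2.65 in WT2, 2.92 in WT3, 2.82 in KO1 and 2.67 in KO2. The lowest and the highest response were both in WT clones. The IFNG response of Fcgr1 also differed (F = 5.62, adjusted p = 0.045), from 2.09 in KO2 to 2.41 in KO1, and this call was lost in 21 of the 30 fits without 1 library. No library of any member stood apart from its genotype and treatment group in the 24 groups examined for a single distant value, and groups of 3 were not examined. Each examined group pooled clones with different levels, so a library distant from its own clone could go unseen.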

How the results depend on the processing

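The call of 4 responding members held in all 5 clones and in both pooled fits under every alternative, with up to 5 called without 1 library. Between genotypes, the 2 untreated calls became 0 with counts summed per clone and 4 without WT1, which added Fcgr1 (-0.43) and Fcer1g (0.13). They became 3 with chromosome 1 factors (adding Fcer1g). The 2 calls after IFNG became 0 with summed counts, 4 without WT1 and 3 with chromosome 1 factors, which added Fcer1g (0.20, edgeR adjusted p = 0.029). Genotype fits without KO1 or KO2 leave a single KO clone, so only effect sizes are given for them. Fcgr4 after IFNG was at -0.28 without KO1, and untreated Fcgr1 at -0.56 without KO2. The 2 responses differing among clones became 1 with chromosome 1 factors and without WT2, WT3, KO1 or KO2 each, and were 1 to 2 without single libraries, an alternative chosen after seeing the data for the clone F tests. Without 1 treated WT1 library, Fcer1g in KO against WT after IFNG was called (0.15, edgeR adjusted p = 0.032). The log2 change of the activating to inhibitory ratio was 0.93 with transcript lengths, 0.92 with Fcgr3 and Fcgr4, 2.102 with Fcgr4 alone, and 1.00 to 1.02 without single libraries. The cause of these changes was not tested.

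Changes of sign concerned uncalled values near 0. For the IFNG response, Fcgrt in WT1 was 0.0063 with DESeq2, 0.0063 with RLE, 0.0014 with at least 10 counts in every library and 0.011 in the single fit. Fcer1g in WT1 was -0.0073 with chromosome 1 factors and -0.011 without the filter. In WT2, Fcer1g was -0.015, -0.00034 and -0.0096 with chromosome 1 factors, no filter and the single fit, and Fcgrt -0.013 and -0.0060 with the first and last of these. Fcer1g in KO1 was -0.028 with chromosome 1 factors and -0.0093 in the single fit. In pooled WT, Fcgrt was -0.011 with chromosome 1 factors and Fcer1g 0.0021 without WT3, and in pooled KO Fcer1g was -0.012 with those factors and Fcgrt -0.0039 without KO2.

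Between untreated genotypes, Fcgr3 was 0.040 with chromosome 1 factors, 0.023 without WT3 and 0.072 without KO1, Fcgrt -0.071 without WT1 and -0.050 without KO2, and Fcgr1 0.011 without KO1. After IFNG, Fcgr3 was 0.022, 0.048 and 0.0024 in those settings and Fcgrt -0.088 and -0.10. In the interaction, Fcgrt was 0.0039 (DESeq2), 0.0041 (RLE), 0.013 (chromosome 1 factors), 0.0022 (no filter), 0.034 (without WT3) and 0.047 (without KO1). Fcgr1 was -0.0019 (at least 10 counts), -0.047 (without WT2) and -0.14 (without KO1). Fcgr4 was -0.048 without WT1, Fcgr2b -0.058 without KO1, and Fcgr3 0.038 without WT3 and 0.025 without KO2.

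Without single libraries, Fcer1g ranged from -0.041 to 0.057 in WT1, -0.018 to 0.025 in WT2, -0.020 to 0.050 in KO1, -0.0043 to 0.061 in KO2 and -0.0011 to 0.043 in pooled KO. Fcgrt ranged from -0.027 to 0.056 in WT1, -0.034 to 0.042 in WT2, -0.043 to 0.029 in KO1, -0.029 to 0.091 in pooled WT and -0.010 to 0.082 in pooled KO. In the interaction, Fcgr1 ranged from -0.036 to 0.033, Fcgr3 from -0.039 to 0.0025 and Fcgrt from -0.026 to 0.024.

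No paired analysis was possible because the columns of the table carry no replicate numbers, so pairing libraries by number and leaving out each number were not run. Clone as a block, which ties libraries by clone alone, left 4 members called in pooled WT and in pooled KO. Depth did not keep any member from being tested.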
